A study of Mus musculus with 4 samples.

Results

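Genes that mark the somatic cells of the testis were read in GC-1 cells, a mouse germ cell line, and compared between cells that received an Hdac6 vector and cells that received the empty vector. The 38 genes were chosen by name, and no measured value entered the rule. They comprise 18 genes of Sertoli cells, 2 nuclear receptors of the steroid-making gonad (Nr5a1 and Nr0b1), 8 genes of Leydig cells, 3 genes of interstitial progenitors, 5 genes of peritubular myoid cells and 2 genes that respond to hedgehog signals. Probes named for 37 of them stood among the 37067 gene names on the array, 66 probes in all. Insl3, a peptide hormone of Leydig cells, was not analysed here.

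Sertoli cells line the seminiferous tubule and nurse the germ cells: they supply GDNF and KIT ligand to spermatogonia, answer follicle-stimulating hormone through FSHR, and secrete inhibin, clusterin and transferrin. Leydig cells lie between the tubules and make testosterone from cholesterol, which STAR brings into the mitochondrion and CYP11A1, the HSD3B enzymes, CYP17A1 and HSD17B3 convert in turn, under luteinizing hormone acting on LHCGR. Peritubular myoid cells wrap the tubule and contract it with smooth muscle actin, myosin and calponin. Desert hedgehog from Sertoli cells acts on Leydig and myoid cells, where it switches on Ptch1 and Gli1.

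The GC-1 line derives from mouse spermatogonia immortalised with a viral T antigen. All cells were grown in high-glucose DMEM with fetal bovine serum. The first group was transfected with a plasmid that expresses murine Hdac6, tagged with myc/DDK, from a CMV promoter, and the other with the empty vector. The medium was changed at 24 h and the cells were harvested at 48 h. Trizol-extracted total RNA was primed with oligo-dT, labelled with Cy3 and hybridised to one-colour Agilent mouse arrays, 2 per group. Whether the arrays of a group stand for separate cultures is not stated in the labels; p-values therefore reflect only how far these samples spread, which may be technical.

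A level here is the log2 processed signal minus the array's 75th percentile of probes, so 0 marks that percentile and negative values lie below it. Levels are compared between arrays for 1 probe at a time, never between probes, and are given as empty vector 1 and 2 against Hdac6 vector 1 and 2. A probe was detected in a group if the scanner software flagged it well above background on both arrays, and a gene was detected if at least 1 of its probes was. Of the spots that are not controls, 66.4% and 65.1% were well above background on empty vector 1 and 2 and 64.3% and 61.04% on Hdac6 vector 1 and 2, and none was saturated. The lowest level among probes well above background differed between arrays, at -6.38, -6.04, -5.82 and -5.33 in the same order, so a dim gene could be detected further down on the empty vector arrays. The single Hdac6 probe read 3.31 and 2.83 against 2.62 and 3.24, 0.909-fold (95% interval 0.578 to 1.43, limma adjusted p = 1.00). Its groups overlapped, and whether this probe reads the vector's transcript was not tested. Of 16 germ cell genes also read, 9 were detected with the empty vector, beside 63% of all gene names. Dazl, Kit, Ret, Nanos2, Stra8, Tex101 and Sycp3 were not detected. At their brightest probes Zbtb16 read -4.66 and -4.49 with the empty vector, Gfra1 -5.09 and -4.87, Lin28a -3.26 and -3.51 and Uchl1 4.53 and 3.39. The other probes of Gfra1, Lin28a and Uchl1 were not well above background on any array.

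Some probes cross an exon junction and so read spliced RNA, which bears on the dim steroidogenic genes in particular. Those of Acta2, Cyp17a1, Cyp11a1 and Hsd17b3 are given here because the account of these genes turns on whether their messages were present. Their coordinates in build mm9, as the files give them, are chr19:34322995-34326249 (minus strand), chr19:46742594-46743207 (minus strand), chr9:57874074-57874544 (plus strand) and chr13:64159943-64160741 (minus strand). Each span is wider than the 60 bases of the probe because it holds an intron.
Acta2: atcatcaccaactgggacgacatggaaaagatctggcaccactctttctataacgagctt
Cyp17a1: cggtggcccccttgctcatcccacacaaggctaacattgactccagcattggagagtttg
Cyp11a1: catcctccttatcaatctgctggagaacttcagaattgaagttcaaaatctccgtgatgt
Hsd17b3: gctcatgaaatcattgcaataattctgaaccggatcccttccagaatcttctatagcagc
The Acta2 probe lies in coding sequence that is nearly the same in all actin genes, so its signal is uncertain by the share other actins may add. The Cyp17a1 probe was detected on all 4 arrays, the Cyp11a1 probe on empty vector 2 and Hdac6 vector 2, and the Hsd17b3 probe on none.

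With the empty vector 28 of the 37 genes were detected, 75.7%, against 63% of all gene names. Sertoli markers made up 15 of these from 18, peritubular myoid markers 5 of 5 and hedgehog targets 2 of 2. From the Leydig list 3 of 7 were detected, from the interstitial list 2 of 3, and of the gonadal receptors Nr5a1 but not Nr0b1. The 9 genes without detection were Sox8, Amh, Cst12, Nr0b1, Hsd3b1, Hsd3b6, Hsd17b3, Lhcgr and Tcf21. With the Hdac6 vector 25 genes were detected, 67.6%, against 59.5% of all gene names, so both shares were lower than with the empty vector. Fshr, Star and Cyp11a1 were the 3 that dropped out. These losses lay near the limit of the flag: Star read -5.30 on Hdac6 vector 2, where it was missed, and Fshr read -5.84 and -5.66 on the Hdac6 vector arrays, below the lowest levels flagged there but above those of the empty vector arrays. If every probe of a gene had to be detected, 18 genes stayed with the empty vector, 48.6% against 51.9% of all gene names. Only Tagln stayed of the myoid list. In a bulk sample a low level in every cell and a high level in a few cells look alike, and fewer cells of a type and less RNA per cell cannot be told apart.

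**Figure D1:**
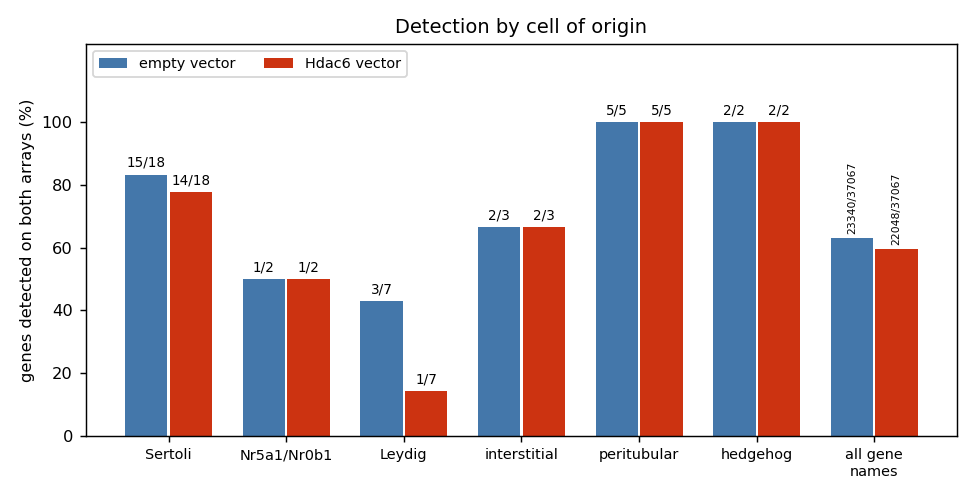
Share of genes detected on both arrays of a group (vertical axis, percent) for each list and for all gene names, with the empty vector in blue and the Hdac6 vector in red. Numbers above the bars give genes detected of genes with a probe; the Leydig list stands lowest, with 3 of 7 and 1 of 7.

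**Figure D2:**
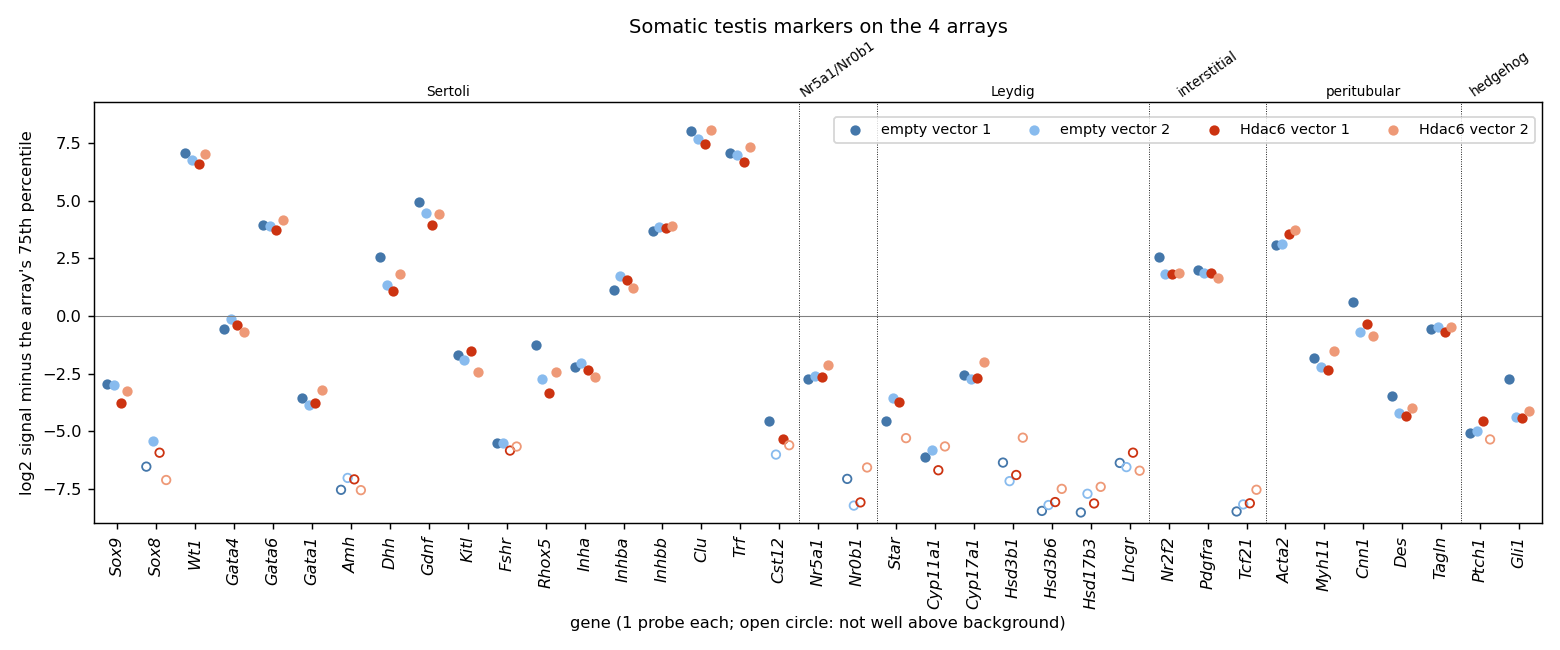
Level of each gene (vertical axis, log2 signal minus the array's 75th percentile) on the 4 arrays, 1 probe per gene, ordered by cell of origin. Filled circles are well above background and open circles are not; Wt1, Clu and Trf lie far above the percentile, while Amh, Nr0b1 and Hsd17b3 have open circles on every array.

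Among the Sertoli transcription factors, Wt1, which Sertoli cells need for their identity and for the tubule to form, read 7.09 and 6.75 against 6.58 and 7.02. Its arrays overlapped between groups. Sox9, the factor that starts Sertoli differentiation, read -2.97 and -2.98 against -3.76 and -3.26, detected on all 4 arrays at both of its probes. Its partner Sox8, which backs up Sox9, was well above background on empty vector 2 alone. Gata4, which works with Wt1 and Nr5a1 on gonadal genes, read -0.55 and -0.15 against -0.38 and -0.70. Gata6, its relative, read 3.97 and 3.93 against 3.74 and 4.15, and Gata1, which in the testis marks Sertoli cells of certain tubule stages, -3.58 and -3.88 against -3.79 and -3.21. The groups overlapped for all of these except Sox9, which was lower on both Hdac6 vector arrays.

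Of the ligands that Sertoli cells send to germ cells, Gdnf, which keeps spermatogonial stem cells dividing, was well above background at both probes. Its brighter probe (chr15:7787474-7787533, mm9, plus strand) read 4.93 and 4.48 against 3.94 and 4.41, lower on both Hdac6 vector arrays. Kitl, the ligand that differentiating spermatogonia receive through KIT, read -1.69 and -1.91 against -1.52 and -2.42. The receptor genes on the germ cell side differed in detection: Gfra1, the GDNF co-receptor, was detected with the empty vector, while Ret and Kit were not. Dhh, the hedgehog ligand, read 2.57 and 1.36 against 1.08 and 1.84, so empty vector 1 stood apart from the other 3 arrays.

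The hormone and secretion genes divided into present and absent ones. Inhbb and Inhba, the beta subunits that form activin in pairs and inhibin with Inha, were on: Inhbb read 3.70 and 3.86 against 3.81 and 3.93, and Inhba 1.13 and 1.73 against 1.57 and 1.22. Inha, the alpha subunit that makes inhibin, read -2.19 and -2.02 against -2.36 and -2.63, lower on both Hdac6 vector arrays. All 12 genes listed as partners of this family were detected with the empty vector, Amhr2, the receptor of anti-Mullerian hormone, among them. Amh itself, which fetal Sertoli cells secrete to remove the female duct, was not well above background on any array.

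Clu, the secreted chaperone clusterin, read 8.05 and 7.66 against 7.48 and 8.09. Trf, the iron carrier transferrin, read 7.07 and 6.98 against 6.67 and 7.32. In both, empty vector 1 and Hdac6 vector 2 were the high arrays and Hdac6 vector 1 the low one, but the second Trf probe read 4.72 and 5.09 against 4.82 and 5.07, with empty vector 1 lowest. Cst12, a cystatin of Sertoli cells, was well above background on empty vector 1 and Hdac6 vector 1, at -4.57 and -5.36, and not on the other arrays. Fshr, the receptor for follicle-stimulating hormone, read -5.51 on each empty vector array, and lost the flag on both Hdac6 vector arrays. Rhox5, an X-linked homeobox gene that androgen switches on in Sertoli cells, read -1.27 and -2.74 against -3.34 and -2.43. Empty vector 1 was the high array for Rhox5, and its second probe, which shares 23 bases with the first, gave the same order.

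Most of the Leydig pathway was not detected. Nr5a1, the receptor that switches on most steroidogenic genes, read -2.72 and -2.62 against -2.65 and -2.12, while its second probe, on another transcript model, was not well above background. Nr0b1, which represses Nr5a1, was not well above background on any array. Star read -4.55 and -3.55 against -3.72 and -5.30, and the last of these was not well above background. Cyp11a1, which cuts the side chain of cholesterol, was detected with the empty vector through a cDNA clone probe alone, at -6.12 and -5.82, close to the lowest levels those arrays could flag. The Cyp11a1 junction probe, well above background on empty vector 2 and Hdac6 vector 2 only, read -6.58 and -5.80 against -5.86 and -5.21. Its groups overlapped. Cyp17a1 was the Leydig enzyme detected in both groups, at -2.54 and -2.73 against -2.68 and -2.00. Neither Hsd3b1 nor Hsd3b6, the enzymes between those steps, nor Hsd17b3, which makes testosterone, nor Lhcgr was well above background on any array at any of their 7 probes.

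Around these enzymes the general machinery was present. From 19 other genes used by steroid-making cells, such as the cholesterol importer Scarb1, the electron donors Fdx1, Fdxr and Por, and Tspo, 18 were detected with the empty vector, though most are made by many cell types. Foxl2, the factor that keeps ovarian granulosa cells from turning into Sertoli cells, read 4.26 and 4.57 against 4.67 and 4.60. It belongs to a list of 10 regulators of steroid genes, 9 of them detected with the empty vector. Wnt4 and Rspo1, which promote ovarian fate, were also detected, and aromatase (Cyp19a1) was not.

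The interstitial markers Nr2f2, a nuclear receptor of Leydig progenitors, and Pdgfra, the receptor for platelet-derived growth factor on the same cells, were detected in both groups. Nr2f2 read 2.57 and 1.83 against 1.82 and 1.89, with empty vector 1 high. Pdgfra read 1.98 and 1.88 against 1.87 and 1.66. Its 2 clone probes were also detected on every array. Tcf21, a factor of interstitial and myoid progenitors, was not well above background on any array.

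Every peritubular myoid gene was detected. Acta2, smooth muscle actin, had 3 detected probes, and its values follow with the comparison. Tagln, the actin-binding protein transgelin, read -0.55 and -0.46 against -0.69 and -0.47. Cnn1, calponin, which restrains the myosin motor, read 0.61 and -0.68 against -0.36 and -0.88, with empty vector 1 high. Des, the muscle filament desmin, read -3.46 and -4.21 against -4.32 and -4.01. Myh11, smooth muscle myosin, is the least certain: a cDNA clone probe read -1.83 and -2.20 against -2.35 and -1.53, while none of the 3 probes for its messenger RNA was well above background on both arrays of a group. From 18 further smooth muscle genes 15 were detected with the empty vector, and Myocd, the cofactor that commands the smooth muscle program with Srf, was not.

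The hedgehog targets were low. Ptch1, the hedgehog receptor that the pathway itself induces, read -5.10 and -5.01 against -4.57 and -5.36 at its brightest tested probe. Gli1, the transcription factor induced in the same way, read -2.74 and -4.38 against -4.43 and -4.14. Empty vector 1 again stood above the other 3 arrays. From 14 other pathway genes 12 were detected with the empty vector, Smo, Gli2, Gli3, Ihh and Hhip among them, and Shh and Sfrp1 were not.

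Genes of other cell types that a testis holds were read in the same way, as were genes of fibroblasts. The share of all gene names detected with the empty vector, 63%, stands beside each of these counts. Macrophage genes were detected for 6 of 8 with the empty vector, with Adgre1 and Mrc1 missing. Ptprc, the pan-leukocyte phosphatase CD45, read 1.82 and 2.11 against 1.85 and 1.95 at its brightest probe. Another Ptprc probe read -3.58 and -3.79 with the empty vector. The remaining Ptprc probes were not well above background on either empty vector array, so the level of this gene is uncertain. Endothelial genes were detected for 4 of 7, with Cdh5, Tek and Esam missing. Fibroblast genes were detected for 8 of 10, with Lum and Thy1 missing, and the median level of the tested fibroblast genes was 6.16 and 6.83 against 6.72 and 6.60 on the 4 arrays. From 18 further Sertoli genes 12 were detected, Krt18 at 7.86 and 8.09 with the empty vector and Vim at 6.49 and 6.84; Cldn11, Aard, Tsx, Defb36, Fgf9 and Slc2a3 were not.

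The comparison asked whether the Hdac6 vector changed these genes. None of the 28 tested genes changed at a limma adjusted p under 0.05, where 0.0114% of all 35206 tested probes did and 0.00851% of all 23492 tested genes by their brightest probe. At an unadjusted p under 0.05 the count was 1, Acta2, against 1.84% of all genes. That count fell to 0 in the limma fits with no trend in the spread, with median scaling and with the replicate block. It rose to 2 with no filter on dim probes, 2 with quantile normalization, 3 with normexp and 4 with the replicate numbers crossed. Acta2 missed the unadjusted threshold of 0.05 with any 1 array left out, so its interval that leaves 0 depends on the setting. With the Hdac6 vector 7 genes were higher and 21 lower, and their median log2 fold change was -0.17, where all genes split into 11929 higher and 11563 lower with a median of 0.00. That median rests on empty vector 1: without it the median was 0.01, with 16 genes higher and 12 lower. The split was 4 higher and 24 lower when arrays were scaled to their median, and 10 and 18 after normexp background correction. Without Hdac6 vector 1 it was 12 and 16. No gene differed by 2-fold or more, against 1.28% of all genes.

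**Figure D3:**
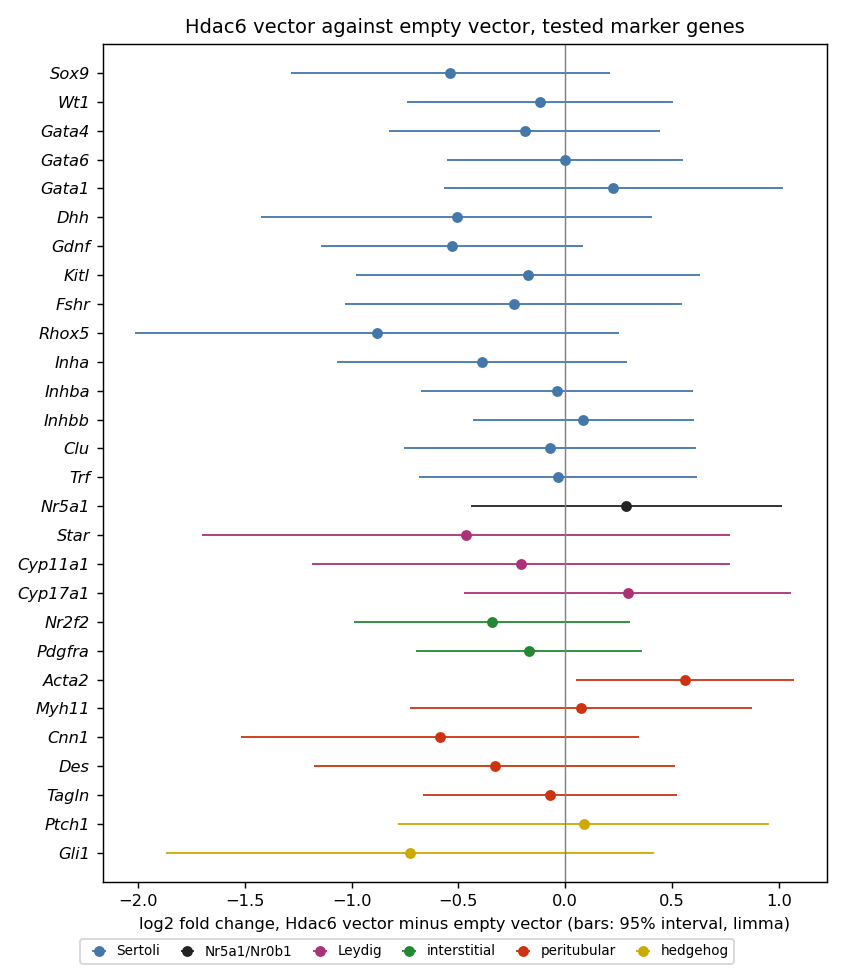
Log2 fold change of the 28 tested genes (horizontal axis, Hdac6 vector minus empty vector), 1 probe per gene, coloured by list. Points are limma estimates from 2 arrays per group and bars their 95% intervals. Acta2 is the gene whose interval leaves 0, from 0.05 to 1.07, before adjustment for the number of probes tested. Fshr and Cyp11a1 are drawn at their fitted differences although the probes used were not well above background with the Hdac6 vector.

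By groups that did not overlap, 1 gene was higher on both Hdac6 vector arrays (Acta2) and 5 were lower (Sox9, Gdnf, Fshr, Inha and Pdgfra), against 12.3% and 12.9% of all genes. As shares of 28 genes, the first lies below its background and the second above it. Sox9 had a log2 fold change of -0.54 (95% interval -1.29 to 0.21, limma adjusted p = 1.00) at its brighter probe and 0.09 at the other. Gdnf had -0.53 (-1.14 to 0.09) at the brighter probe and 0.04 at the other. Inha had -0.39 (-1.07 to 0.29) and Pdgfra -0.17 (-0.70 to 0.36). Because Fshr was not well above background with the Hdac6 vector, the size of its difference is uncertain. The fitted log2 difference was -0.24 (95% interval -1.03 to 0.55, limma adjusted p = 1.00), an interval that spans both directions. Setting each Hdac6 vector array at its own lowest flagged level gave a value 1.05-fold below the empty vector. That value is not a limit for this probe. Star, at -5.30 on Hdac6 vector 2, went unflagged above that array's lowest flagged level of -5.33. For Cyp11a1 no value of this kind is given, since its empty vector level lay below the lowest level flagged with the Hdac6 vector. The fitted differences of Fshr and Cyp11a1 enter the counts and medians; without these 2 the median was -0.14.

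The Sertoli list had 2 genes higher and 13 lower, with a median of -0.17. This split rests on single arrays. Without empty vector 1, 7 were higher and 8 lower, with a median of -0.06. Without Hdac6 vector 1, 6 were higher and 9 lower, with a median of -0.15. Rhox5 had the most negative value, -0.88 (95% interval -2.01 to 0.25, limma adjusted p = 1.00). It rests on which empty vector array is used: without empty vector 2 it was -1.62 and passed the test (adjusted p = 0.0454), and without empty vector 1 it was -0.14. Dhh, with -0.51 (-1.42 to 0.41), turned to 0.10 without empty vector 1. For Wt1, Gata4, Gata6, Kitl, Inhba, Inhbb, Clu and Trf the 95% interval stayed within 2-fold in either direction. These were -0.12 for Wt1, -0.19 for Gata4, 0.00 for Gata6, -0.17 for Kitl, -0.04 for Inhba, 0.08 for Inhbb, -0.07 for Clu and -0.03 for Trf. Gata1, at 0.23 (-0.57 to 1.02), could still be up to 2.03-fold higher within its interval.

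In the other lists the differences were of like size. Nr5a1 had 0.29 (-0.44 to 1.01) and Cyp17a1 0.29 (-0.47 to 1.06), both with Hdac6 vector 2 as the high array. Star, with -0.46 (-1.70 to 0.77), had the widest interval. Nr2f2 had -0.34 (-0.99 to 0.30), and turned to 0.03 without empty vector 1. The hedgehog targets parted, with -0.73 (-1.87 to 0.42) for Gli1 and 0.09 (-0.78 to 0.96) for Ptch1, and Gli1 turned to 0.09 without empty vector 1. None of these passed the test.

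Acta2 was the marker with the clearest separation of the groups. Its brightest probe, the junction probe given above, read 3.06 and 3.12 (mean 3.09 ± 0.0374 SD, n = 2) against 3.58 and 3.73 (3.65 ± 0.107 SD, n = 2). The difference was 1.48-fold (95% interval 1.04 to 2.10, limma unadjusted p = 0.0346, adjusted p = 1.00), so it did not pass the test. A second probe further along the transcript (chr19:34316060-34316119, mm9, minus strand) read 2.47 and 2.66 against 3.21 and 3.53, a log2 fold change of 0.81 (0.26 to 1.35, limma adjusted p = 1.00). The third (chr19:34315697-34315756) read -2.86 and -1.79 against -1.40 and -1.24, a log2 fold change of 1.01 (0.15 to 1.87, limma adjusted p = 1.00). All 3 were thus higher on both Hdac6 vector arrays, but they are probes named for 1 gene on the same arrays and are not independent. The signal of the brightest is also uncertain by the share other actins may add. The third depends on empty vector 1: without empty vector 2 it was 1.55 (adjusted p = 0.0406) and without empty vector 1 it was 0.47. The remaining Acta2 probe, on a cDNA clone, was not well above background on any array.

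**Figure D4:**
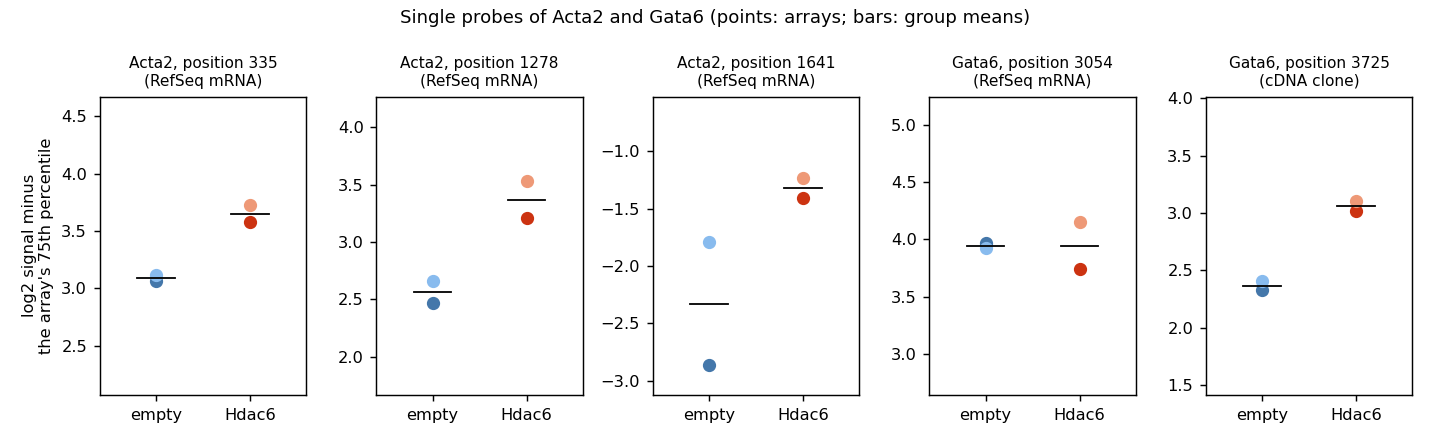
Level of each detected Acta2 and Gata6 probe (vertical axis, log2 signal minus the array's 75th percentile, with a scale of its own per panel) on the 2 empty vector arrays (blue) and the 2 Hdac6 vector arrays (red); bars are group means. The 3 Acta2 probes and the Gata6 clone probe are higher on both Hdac6 vector arrays, while the Gata6 messenger RNA probe overlaps.

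Of the other myoid genes, 3 were lower and 1 higher, and none passed the test. Cnn1 had -0.58 (-1.52 to 0.35), Des -0.33 (-1.18 to 0.52), Tagln -0.07 (-0.66 to 0.52) and Myh11 0.07 (-0.73 to 0.87). Among the further smooth muscle genes 8 were higher and 7 lower, with a median of 0.02; none changed in the limma fit and 0 had an unadjusted p under 0.05. The 4 farthest from 0 were all higher: Actg2, the enteric smooth muscle actin, at 0.43, Fhl2, a cofactor of smooth muscle genes, at 0.39, Cnn2, a calponin of non-muscle cells, at 0.36, and Srf, the factor that binds CArG boxes, at 0.35.

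Gata6 shows how a gene's probes can part. Its messenger RNA probe differed by 0.00 on the log2 scale (-0.55 to 0.55), while a cDNA clone probe read 2.33 and 2.41 against 3.02 and 3.10, a log2 fold change of 0.69 (0.18 to 1.20, limma adjusted p = 1.00). The clone probe was singled out after its values were seen.

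Promoters were read for the 3 genes on which the levels above bear most: Acta2, which separated the groups, and Gdnf and Lhcgr, which hold the same nuclear receptor motif but differ in that Gdnf was detected and Lhcgr was not. The sequences are the 250 bases before the RefSeq transcription start in build GRCm38.p6, at chr19:34255374-34255623 (minus strand), chr15:7809798-7810047 (plus strand) and chr17:88792015-88792264 (minus strand). Capitals mark, in Acta2, CArG boxes, the elements that serum response factor binds, with at most 1 inner letter other than A or T, and in the others AGGTCA, the half-site that Nr5a1 and other nuclear receptors bind.
Acta2: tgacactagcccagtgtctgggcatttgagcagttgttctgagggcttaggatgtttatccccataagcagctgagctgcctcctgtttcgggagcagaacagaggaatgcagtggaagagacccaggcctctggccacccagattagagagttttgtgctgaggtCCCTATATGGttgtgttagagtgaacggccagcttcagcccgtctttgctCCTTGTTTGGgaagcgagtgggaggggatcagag
Gdnf: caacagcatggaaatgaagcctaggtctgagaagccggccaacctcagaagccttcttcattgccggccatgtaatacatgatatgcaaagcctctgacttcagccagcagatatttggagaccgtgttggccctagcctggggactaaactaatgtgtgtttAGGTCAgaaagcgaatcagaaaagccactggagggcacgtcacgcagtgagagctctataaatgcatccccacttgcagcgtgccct
Lhcgr: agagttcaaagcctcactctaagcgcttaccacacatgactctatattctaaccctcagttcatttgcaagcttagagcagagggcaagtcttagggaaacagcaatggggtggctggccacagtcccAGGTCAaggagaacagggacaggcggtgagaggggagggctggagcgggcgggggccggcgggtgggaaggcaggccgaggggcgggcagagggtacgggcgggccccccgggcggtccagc
The Acta2 boxes, CCCTATATGG and CCTTGTTTGG, lie 84 and 34 bases before the start. The AGGTCA of Gdnf lies 87 bases and that of Lhcgr 122 bases before the start. A CArG box of this kind, on either strand, is found in 8.59% of the 32851 RefSeq starts, and in 4 of the 27 starts listed for 25 of the genes (Acta2, Cyp11a1, Dhh and Fshr). AGGTCA on either strand is found in 14% of all starts and in 5 of the 27 (Cyp11a1, Gdnf, Inha, Lhcgr and Nr0b1). These matches are descriptions of the letters and say nothing of binding.

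Genes that work beside the markers were set against the same test. The partners of inhibin, activin and Amh had 2 genes higher and 10 lower with a median of -0.18, and those farthest from 0 were Amhr2 at -0.58, Acvr2b at -0.35, Bambi at -0.24 and Acvr2a at -0.22. The further hedgehog genes had 5 higher and 7 lower with a median of -0.03, and Gas1, a co-receptor, was at 0.37, Sufu, which holds Gli factors back, at -0.35 and Gli2 at 0.33. Hhip, a decoy that binds hedgehog ligands, was not well above background on the Hdac6 vector arrays, and no fold is given. Its fitted difference enters the hedgehog count and median, and without it the median was -0.02. The further Sertoli genes had 7 higher and 5 lower with a median of 0.07: Ptgds was at -0.40, Dmrt1 at 0.25 and Gja1 at -0.25. The further Leydig genes had 10 higher and 8 lower with a median of 0.05. In that list Hsd11b1, which interconverts active and inactive glucocorticoid, was at 0.98, Mc2r, the receptor for corticotropin, at 0.85, Cyp11b1, an adrenal enzyme, at -0.80 and Por at -0.34. The regulators of steroid genes had 5 higher and 4 lower with a median of 0.09, with Nr4a2 at -0.50, Rspo1 at 0.27, Wnt4 at 0.25 and Foxl2 at 0.22. No gene of these 5 lists passed the limma test after adjustment, and 3 had an unadjusted p under 0.05, all in the Leydig list.

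The lists of other cell types were read in the same way. Germ cell genes had 3 higher and 6 lower with a median of -0.27: Dnd1 was at -0.46, Id4 at -0.45 and Sohlh1 at 0.38. Ddx4, the germ cell helicase, was not well above background on the Hdac6 vector arrays, and neither was Postn of the fibroblast list, so no fold is given for them. Their fitted differences enter the counts and medians. Without Ddx4 the germ cell median was -0.21, and without Postn the fibroblast median was 0.13. Macrophage genes had 3 higher and 3 lower with a median of 0.01, where Cd68 was at -0.92 and Csf1r at 0.13, Itgam at 0.13 and Ptprc at -0.06. Endothelial genes had 2 higher and 2 lower with a median of -0.20, Kdr at -0.53, Vwf at -0.42, Pecam1 at 0.10 and Flt1 at 0.02. Fibroblast genes had 6 higher and 2 lower with a median of 0.11, S100a4 at 0.39, Dcn at 0.25 and Pdgfrb at 0.23. The 6 genes that all cells make had a median of 0.01. No gene of these lists changed in the limma fit, with 1, Cd68, at an unadjusted p under 0.05, and their part in the markers' differences was not tested.

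Single arrays stood at the extremes for many of the markers. Empty vector 1 held the highest level for 11 of the 28 genes, 39.3% against 28.2% of all genes: Sox9, Wt1, Dhh, Gdnf, Fshr, Rhox5, Nr2f2, Pdgfra, Cnn1, Des and Gli1. Hdac6 vector 1 held the lowest level for 15 of them, 53.6% against 37.98% of all genes. Hdac6 vector 2 was the highest for 10, 35.7% against 39.9% of all genes. A high empty vector array and a low Hdac6 vector array both make a difference more negative; no test was run on these counts. Leaving out 1 array at a time turned the sign of 19 of the 28 genes. Acta2, Gdnf, Inha, Nr5a1, Pdgfra, Rhox5 and Sox9 were the 7 that kept 1 direction with every array left out and under every other setting run, though not 1 size: with an array left out the log2 fold change ran from 0.02 to 0.55 for Nr5a1, -0.27 to -0.06 for Pdgfra, -0.79 to -0.29 for Sox9, -0.76 to -0.30 for Gdnf, -0.53 to -0.26 for Inha and 0.49 to 0.64 for Acta2.

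**Figure D5:**
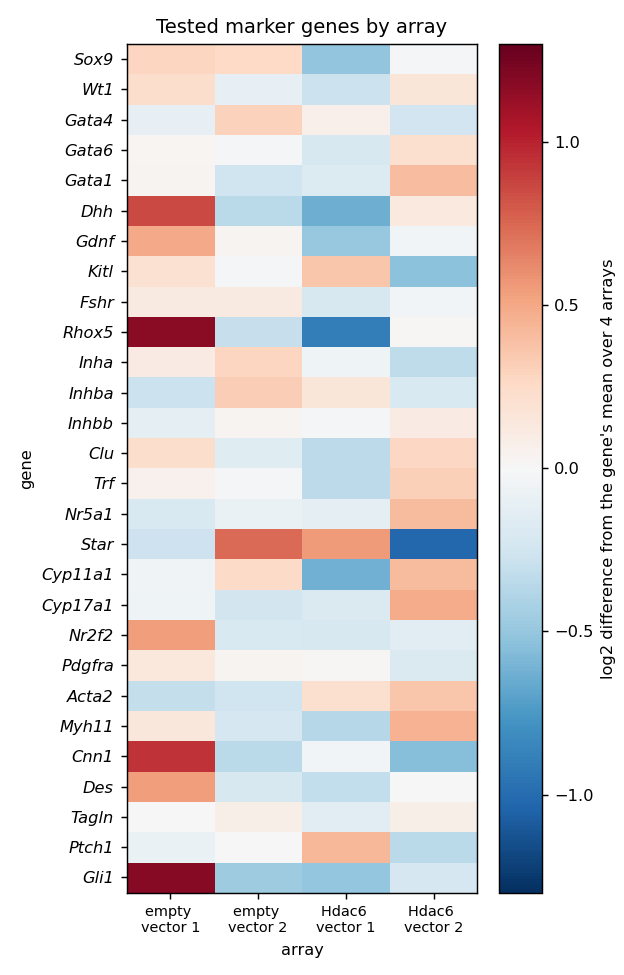
Difference of each array from the gene's mean over the 4 arrays (colour, log2; red higher, blue lower) for the 28 tested genes, 1 probe each. The column of empty vector 1 is red for Rhox5, Gli1, Cnn1 and Dhh, which stand near the other 3 arrays' level elsewhere, and Acta2 is blue on both empty vector arrays and red on both Hdac6 vector arrays.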

How the data were processed

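Gene expression was measured in 4 GC-1 samples, 2 per group. Per the file headers, the authors' scanner files hold spot intensity extracted with Feature Extraction 11.5.1.1 (protocol GE1_1105_Oct12), corrected for background and spatial trend within each array only, with flags for background and outliers, and positions in build mm9. The authors also deposited a table of log2 values, 1 per gene name, whose making no label or header describes; its scale and direction were found by setting 25179 rows with 1 probe against the scanner values, and its centring is a constant per array. The 4 arrays share 1 slide and 1 scan day.

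Outlier-flagged spots were left out, repeated probes averaged, and log2 intensity taken minus each array's 75th percentile, which left 56590 probes. The 35206 probes well above background on both arrays of a group were tested with limma 3.58.1 in R 4.3.3 (lmFit, eBayes with trend, Benjamini-Hochberg over all tested probes, two-sided, threshold 0.05). The fit has 2 residual degrees of freedom, to which the shared spread added 7.08. The brightest tested probe stands for a gene. The functions were tested on simulated data. All 38 members are named, and of each further list the genes that pass or else up to 4 with the largest difference; some genes of these lists are not reported here. Members and lists were chosen with earlier results of these data known. All 38 symbols matched RefSeq (GRCm38.p6), which was used for names and promoters. The number of arrays limits the precision. Alternatives were normexp with an offset of 50, quantile and median scaling, no filter, no trend, a replicate block, the authors' table, the mean of a gene's tested probes, and each array left out.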

Additional observations from a re-analysis of the deposited data

How the results depend on the processing

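By the probe that stands for each gene, no marker changed under the alternatives run except Rhox5 without empty vector 2, so the count of changed markers ran from 0 to 1 with an array left out. Of all probes, 4 changed, against 2 with no trend in the spread, 5 with no filter, 0 with median scaling (727 at an unadjusted limma p under 0.05), 2 with quantile normalization, 29 with normexp, 19 in the authors' deposited table and 0 to 300 with an array left out, 0 without Hdac6 vector 1 (1424 unadjusted) and without Hdac6 vector 2 (654 unadjusted). The markers' median stayed between -0.26 and -0.04 under other settings and between -0.29 and 0.01 with an array left out; moves of this size lie within the spread between arrays. Signs turned under median scaling for Inhbb (-0.0065), Myh11 (-0.017) and Ptch1 (-0.0050). They turned under quantile normalization for Gata6 (0.029) and Ptch1 (-0.034), under normexp for Fshr (0.0091), Cyp11a1 (0.10) and Tagln (0.026), and in the authors' deposited table for Gata4 (1.02), Gata6 (0.27), Kitl (0.024), Cyp11a1 (0.14) and Cnn1 (0.94). With the mean of all tested probes in place of the brightest, Kitl turned to 0.10, Gata6 to 0.35 and Trf to 0.0041, and Sox9 was -0.22, Pdgfra -0.39 and Acta2 0.79. Values of Fshr and Cyp11a1 are fitted differences, not folds, since the probe used for each was not well above background with the Hdac6 vector. The cause was not tested, apart from the table's averaging over probes, given among the other observations. With an array left out the log2 fold change ran from -0.37 to 0.23 for Clu, -1.23 to 0.060 for Cnn1, -0.72 to 0.31 for Cyp11a1, -0.046 to 0.63 for Cyp17a1, -0.71 to 0.045 for Des, -1.11 to 0.096 for Dhh, -0.066 to 0.52 for Gata1, -0.39 to 0.012 for Gata4, -0.21 to 0.20 for Gata6, -1.55 to 0.094 for Gli1, -0.34 to 0.26 for Inhba, -0.62 to 0.28 for Kitl, -0.34 to 0.48 for Myh11, -0.72 to 0.028 for Nr2f2, -0.31 to 0.48 for Ptch1, -1.25 to 0.32 for Star, -0.18 to 0.038 for Tagln, -0.36 to 0.29 for Trf and -0.34 to 0.10 for Wt1. Where this left a group with 1 array, its spread was assumed to be that of the other group. Detection with the empty vector fell from 28 to 18 genes if every probe had to be detected, 48.6% against 51.9% of all gene names. It was 30 genes with 1 array sufficing, 33 with the software's weaker flag for a positive signal and 25 over all 4 arrays. Same-numbered arrays deviated from their group means with a correlation of -0.356 over 35206 probes. With 2 arrays per group this cannot decide whether the numbers pair the samples, since probes of an array share its effects. The labels do not say. With the replicate block 22 probes and 0 markers changed, and with the numbers crossed, a setting chosen after seeing the data, 14 probes and 0 markers. Slide as a block was not run, since there was 1 slide. Dim genes such as Fshr, Star, Cyp11a1 and Ptch1 are limited by signal over background.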

Other observations

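The authors' deposited table gives 1 value per gene name, and for markers with several probes it averages a changing set of probes. In 39 marker values where some but not all probes were well above background, the table's value equalled the mean of the detected probes (tolerance 0.02) in 39 and the mean of all probes in 0. Gata4 has 2 probes, the dimmer of which was not detected on Hdac6 vector 2. In the authors' deposited table it stood at -2.66 and -2.58 on empty vector 1 and 2 against -2.60 and -0.60 on Hdac6 vector 1 and 2, a log2 difference of 1.02, where the brighter probe gave -0.19. Cnn1 has 2 probes, the dimmer of which was detected on empty vector 1 alone. In the authors' deposited table it stood at -2.33 and -0.42 against -0.09 and -0.78, a log2 difference of 0.94, where the brighter probe gave -0.58. The medians of the table's 4 columns were -3.78, -3.67, -3.71 and -3.68.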
